A study of Mus musculus with 9 samples.

Results

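In the mid-gestation mouse embryo, cells sorted for an endothelial and a blood surface protein together carry markers of the vessel wall and of blood at once. These double-positive cells (HSPC, hematopoietic stem and progenitor cells) were set, gene by gene, against the midpoint of the endothelial cells (EC) and the blood cells (HC) of the same tissue. All cells came from the aorta-gonad-mesonephros (AGM) region of C57Bl6 embryos at E11.5, with no treatment or altered allele named. HSPC were sorted as CD144+CD45+, EC as CD144+CD45- and HC as CD144-CD45+, with 3 arrays per group and 9 in all. CD144 is VE-cadherin, the junction protein encoded by Cdh5, and CD45 is the leukocyte phosphatase encoded by Ptprc. The departure of a gene is the mean log2 level of the 3 HSPC arrays minus the average of the EC and HC group means. It was computed for all 20405 of 21115 probe sets that carry a single gene symbol. Nothing in the labels tells whether the 3 samples of each group are separate pools of embryos. The p-values therefore cover no more than the spread among these samples, part or all of which may be technical.

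In the AGM, blood stem cells arise from hemogenic endothelium of the dorsal aorta through an endothelial-to-hematopoietic transition. Cells in transit lose endothelial junction and vessel genes and gain blood surface proteins, under transcription factors such as Runx1 and Gfi1. The double-positive gate therefore holds cells that still carry an endothelial protein and already carry a blood one. CD45+ cells of the region also include macrophages and other differentiated blood cells.

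The midpoint of log2 values is a geometric mean, and it is not what a mixture of the RNA of both populations would give. Mixing adds RNA on the unlogged scale, so an equal blend of EC and HC RNA lies above the log2 midpoint wherever both populations differ. The gap is 0.09 for a gene that differs by 1 between EC and HC on the log2 scale, 0.32 at a difference of 2, 1.09 at 4 and 2.02 at 6. Each gene was therefore held against 3 yardsticks. These were the midpoint, the equal blend, and the range between EC and HC, which no blend of both in any share can leave. All 3 comparisons used the same 9 arrays and share the HSPC values, so they are readings of the same differences and not separate evidence.

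The sorted proteins' own genes followed the gates. Cdh5 stood at 11.11, 9.76 and 10.54 in the HSPC arrays, against 11.84, 11.56 and 11.68 in EC and 6.36, 5.93 and 5.09 in HC. Ptprc stood at 8.62, 9.13 and 8.93 in HSPC, against 4.50, 4.39 and 4.37 in EC and 9.87, 10.06 and 9.92 in HC. HSPC were thus near the higher group for both genes, below every EC array for Cdh5 and below every HC array for Ptprc. The 3 HSPC arrays were not alike in their position. Over 5435 genes that differed between EC and HC, the share of EC RNA in the blend that lay nearest to each array was 71% for HSPC replicate 1, 21% for replicate 2 and 43% for replicate 3, and 44% for their mean. The same share fitted on the log2 scale was 0.59, 0.31 and 0.43. No blend lay close to these arrays. The root mean square distance to the nearest blend was 0.57, 0.55 and 0.54 for replicates 1, 2 and 3. To the log2 midpoint it was 0.53, 0.57 and 0.48, less than to the nearest blend for replicates 1 and 3. The shares thus describe a position between EC and HC and are not measured mixing fractions. HSPC replicates 1 and 2 also lay further from the other arrays of their group. Over the same 5435 genes their root mean square distance was 0.45 and 0.42, against 0.22 to 0.26 for the other 7 arrays. These genes were chosen for their EC-HC difference, so the distance includes the difference in share. Results below that rest on these arrays are given with and without them. In these bulk samples fewer cells of a type and less RNA per cell cannot be told apart. Log2 values at or under 4.69 count as background here. That is the 95th percentile over 1289 receptor genes of smell and pheromone sensing.

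The cells' own markers stood far above both single-positive populations. Hlf, a PAR-family bZIP transcription factor that marks blood stem cells, had 9.68, 9.62 and 9.81 in HSPC, against 5.25, 5.03 and 5.66 in EC and 5.87, 5.75 and 5.53 in HC. All 3 HSPC arrays lay well above the other 6, which overlapped one another. Hlf departed from the midpoint by 4.19 (SE 0.13, limma adjusted p = 1.98e-06) and from the equal blend by 4.18, and was 15.9-fold above HC, the higher of both (adjusted p = 3.19e-05). Adgrg1, an adhesion G protein-coupled receptor also called Gpr56 and found on stem cells, had 10.72, 10.62 and 10.66 in HSPC, against 7.10, 6.52 and 6.88 in EC and 8.14, 8.08 and 7.87 in HC. Its HSPC arrays were the tightest of the 3 groups and its departure from the midpoint was 3.24 (SE 0.12, limma adjusted p = 3.56e-06), 6.23-fold above HC. Kit, the receptor for stem cell factor, had 10.16, 9.91 and 9.94 in HSPC, against 8.18, 8.14 and 8.34 in EC and 7.62, 7.58 and 7.33 in HC. Here EC was the higher of both neighbours, and HSPC stood 3.44-fold above it, with a departure of 2.14 (SE 0.09, limma adjusted p = 7.28e-06). The departures of these 3 genes did not follow the share of EC RNA: HSPC replicates 1 and 2, which were furthest apart in that share, differed by little in each of them. The calls of all 3 held without any single array.

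The 250 bases before the start of these 3 genes are given because these genes are the markers of the double-positive cells and lay above both neighbours. They are from RefSeq, assembly GRCm38.p6, written 5′ to 3′ on the gene's strand. The regions are chr11:90390918-90391167 (minus strand) for Hlf, chr8:94976859-94977108 (plus strand) for Adgrg1 and chr5:75574737-75574986 (plus strand) for Kit. Capitals mark matches, on either strand, to a GC box (GGGCGG) and a cAMP response element (TGACGTCA), which were searched for after the sequences had been seen.
Hlf: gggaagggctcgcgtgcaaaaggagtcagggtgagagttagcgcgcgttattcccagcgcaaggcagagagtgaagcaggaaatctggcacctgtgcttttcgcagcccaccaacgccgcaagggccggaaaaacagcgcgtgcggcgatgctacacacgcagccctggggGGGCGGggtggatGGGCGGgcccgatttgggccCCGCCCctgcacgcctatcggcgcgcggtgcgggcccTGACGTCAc
Adgrg1: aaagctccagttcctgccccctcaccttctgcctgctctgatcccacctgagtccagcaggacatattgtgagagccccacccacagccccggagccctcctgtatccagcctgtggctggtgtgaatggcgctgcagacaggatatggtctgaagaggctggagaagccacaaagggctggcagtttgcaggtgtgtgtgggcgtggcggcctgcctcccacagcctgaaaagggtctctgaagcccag
Kit: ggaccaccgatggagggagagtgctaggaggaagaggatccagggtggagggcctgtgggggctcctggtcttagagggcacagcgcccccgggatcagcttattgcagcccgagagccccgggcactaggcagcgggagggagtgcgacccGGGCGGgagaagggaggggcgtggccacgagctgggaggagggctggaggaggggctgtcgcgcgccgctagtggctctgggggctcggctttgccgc
The Hlf stretch held 3 GC boxes and 1 cAMP response element, with no overlap between them, and the Kit stretch held 1 GC box. The Adgrg1 stretch held no match. For Adgrg1 and Kit the table lists 2 starts each, of which 1 is shown. G and C made up 67.2% of the Hlf stretch, 60.8% of that of Adgrg1 and 70.8% of that of Kit. None of the 3 stretches held the letters AGATAA (bound by GATA factors), TGTGGT (bound by Runx factors) or GGAAGT (bound by Ets factors) on either strand. Of 15803 tested genes with a listed promoter, 45.4% held GGGCGG, 2.07% TGACGTCA, 8.77% AGATAA, 11.9% TGTGGT and 20.7% GGAAGT in the same window. Of the 70 listed promoters among the 83 genes called above both EC and HC, 61.4% held GGGCGG, 4.29% TGACGTCA, 4.29% AGATAA, 8.57% TGTGGT and 15.7% GGAAGT. The share with GGGCGG was not particular to these genes. It was 54.5% for genes called above the midpoint, 60.8% for those below it and 53.3% of 15 promoters for those below both. A match is a description of the letters and not a binding site.

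Across all genes, HSPC departed from the midpoint at 1339 (6.56%) of 20405 genes (limma, adjusted p under 0.05), 773 (3.79%) above and 566 (2.77%) below. Of those above, 208 departed by at least 2-fold, and of those below, 52. Against the equal blend 604 genes (2.96%) were above and 987 (4.84%) below. A total of 83 genes (0.407%) were above both EC and HC and 22 (0.108%) below both. The split between higher and lower depended on the yardstick and on the scaling. Genes above made up 57.7% of those called against the midpoint and 45.2% with each array centred on its own median (627 above and 759 below), and 38% of those called against the blend, or 27.2% with centring (465 above and 1242 below). Without HSPC replicate 3, the array nearest the group mean, 481 genes were above and 270 below the midpoint, 374 above and 515 below the blend, and 43 above and 4 below both. Without HC replicate 1, 371 genes were below the midpoint. The genes outside both varied most: above both there were 48 without EC replicate 1, 48 without EC replicate 3, 44 without HC replicate 1, 38 without HC replicate 2 and 36 without HC replicate 3. Below both there were 13 without HSPC replicate 2, 5, 11 and 8 without EC replicates 1, 2 and 3, and 5, 2 and 6 without HC replicates 1, 2 and 3.

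**Figure D1:**
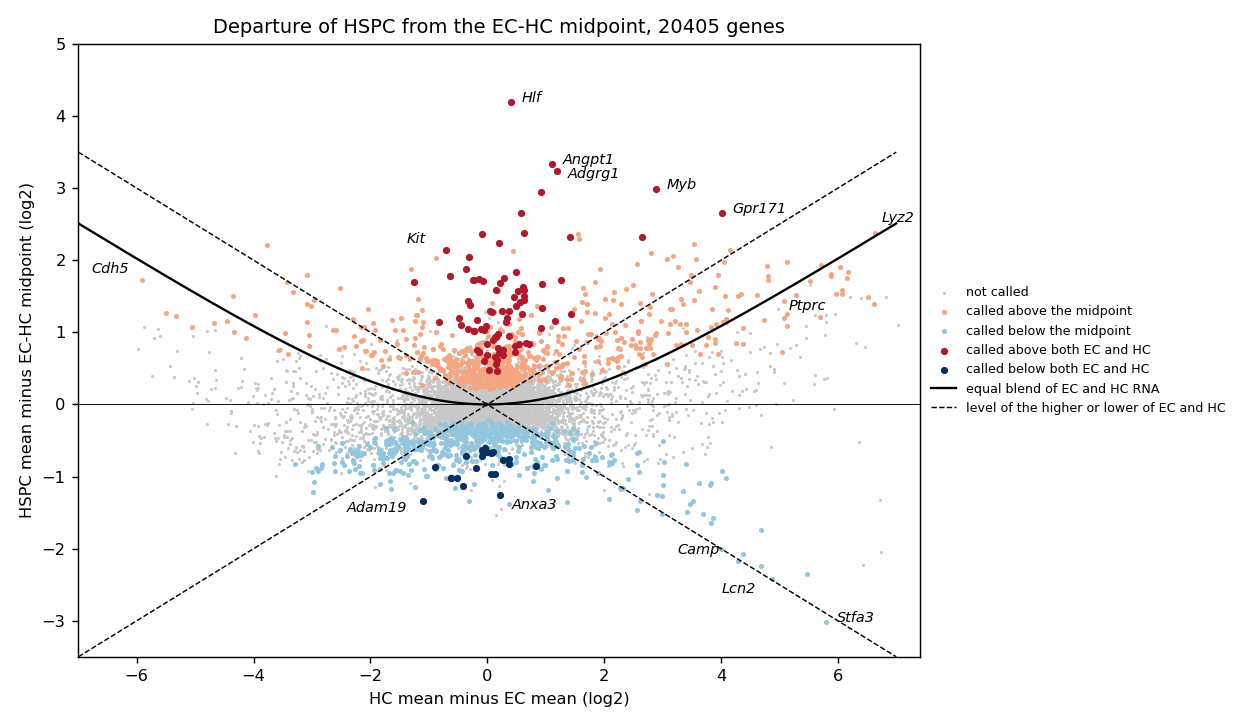
Departure of each of 20405 genes from the EC-HC midpoint (y, log2) against the HC mean minus the EC mean (x, log2). The solid curve is where an equal blend of EC and HC RNA would lie, and the dashed lines are the levels of the higher and the lower of both groups. Dark red points, called above both, lie mostly where EC and HC differ little, with Hlf at 4.19. Most of all genes lie there too, 18200 of the 20405 within 1 log2 unit. Cdh5, Ptprc and Lyz2 lie close to the blend curve.

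A departure above the midpoint was read differently by the yardsticks. Of the 773 genes above it, 584 (75.5%) were also above the equal blend, 188 (24.3%) did not depart from the blend past the threshold, and 1 was below it. All 566 genes below the midpoint were also below the blend, which is never under the midpoint. Among the 773, 500 were higher in HC than in EC and 273 higher in EC, and 100 had EC or HC at background. For the 566 below, HSPC was at background in 87, EC or HC in 94, and HSPC and EC both in 54. Where EC or HC is at background the log2 midpoint is not determined. The 116 genes more than 4 higher in HC than in EC on the log2 scale had a median departure of 0.83, where an equal blend lies 1.48 above the midpoint. Of them 34.5% were above the midpoint, against 3.79% of all genes, and 2.59% above the blend. The 54 genes at least 4 higher in EC had a median departure of 0.34 where a blend lies 1.41 above, and 16.7% were above the midpoint. Genes 2 to 4 higher in EC (375) had a median departure of -0.23, with 8% above and 10.4% below the midpoint and 42.9% below the blend. Genes 2 to 4 higher in HC (334) had a median of 0.18, with 27.5% above and 10.8% below the midpoint. The share above the midpoint was thus larger for genes high in HC than for genes as high in EC. This difference between bins was not tested.

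Hlf, Adgrg1 and Kit were 3 of the 83 genes above both EC and HC. Angpt1, the ligand of the endothelial receptor Tek, had 9.07, 8.39 and 8.75 in HSPC, against 5.18, 4.61 and 4.75 in EC and 6.06, 5.82 and 5.99 in HC. No HSPC array came near either group, and the departure was 3.33 (SE 0.17, limma adjusted p = 1.67e-05), 6.86-fold above HC. Cd27, a receptor of the tumour necrosis factor family on early progenitors, had 8.69, 8.05 and 8.15 in HSPC, against 5.25, 4.57 and 4.87 in EC and 5.89, 5.64 and 5.89 in HC. It was 5.61-fold above HC, with a departure of 2.94 (SE 0.18). Rab38, a small GTPase of lysosome-related organelles, had 8.94, 8.23 and 8.15 in HSPC, against 5.74, 5.22 and 5.54 in EC and 6.50, 5.93 and 5.82 in HC, and was 5.14-fold above HC. In Angpt1, Cd27 and Rab38 alike HSPC replicate 1 was the highest of the 3, and the groups did not overlap.

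Stat4, a transcription factor of cytokine signalling, had 7.07, 7.19 and 6.80 in HSPC, against 4.50, 4.20 and 4.28 in EC and 4.75, 5.06 and 5.06 in HC. EC was at background, so its departure from the midpoint was at least 2.20. Hook1, an adaptor between vesicles and microtubules, had 7.21, 6.81 and 6.49 in HSPC, against 4.75, 4.30 and 4.45 in EC and 4.84, 4.56 and 4.70 in HC. Both single-positive groups were at or next to background, and the departure was at least 2.11. Every HSPC array of Stat4 and Hook1 was above the other 6. Krt18, a keratin of simple epithelia, averaged 8.27 ± 0.41 in HSPC, 6.38 ± 0.32 in EC and 6.07 ± 0.34 in HC (SD, n = 3 each), and was 3.71-fold above EC (adjusted p = 0.0174). Sfrp2, a secreted protein that binds Wnt ligands, averaged 9.08 ± 0.21 in HSPC, 7.39 ± 0.32 in EC and 7.03 ± 0.52 in HC, and was 3.24-fold above EC (adjusted p = 0.0299). Myb, a transcription factor needed for definitive blood, had 10.06, 9.78 and 9.93 in HSPC, against 5.62, 5.62 and 5.22 in EC and 8.40, 8.39 and 8.33 in HC. It differed most between EC and HC among these genes and still departed from the midpoint by 2.99 and from the blend by 2.37, at 2.93-fold above HC.

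The median departure of the 83 genes was 1.36 in HSPC replicate 1, 1.20 in replicate 2 and 1.29 in replicate 3. All 83 had every HSPC array above the other 6, which held for 743 genes (3.64%) of all 20405. The call favours genes with a small spread between arrays, so a likeness of the HSPC arrays is largely fixed by it. The median fold over the higher of EC and HC was 2.05, from 1.31 to 15.9, and 43 of the 83 were at least 2-fold above it. In 12 of the 83 EC or HC was at background, and in 3 HSPC was as well. Gpr171 and Mctp1 were among those with EC at background and were also well expressed in HC. Gpr171, a G protein-coupled receptor, had 8.44, 8.50 and 8.35 in HSPC, against 3.87, 3.56 and 3.89 in EC and 7.81, 7.77 and 7.77 in HC, and departed from the midpoint by at least 2.19. Mctp1, a membrane protein with calcium-binding C2 domains, averaged 7.32 ± 0.32 in HSPC, 3.67 ± 0.08 in EC and 6.32 ± 0.11 in HC, a departure of at least 1.82. Timd4, a receptor by which macrophages bind dying cells, had 7.32, 8.70 and 7.64 in HSPC, against 4.64, 4.77 and 4.82 in EC and 6.29, 6.15 and 6.43 in HC. Its HSPC arrays all lay above HC, but the call above both missed the threshold (adjusted p = 0.0749).

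**Figure D2:**
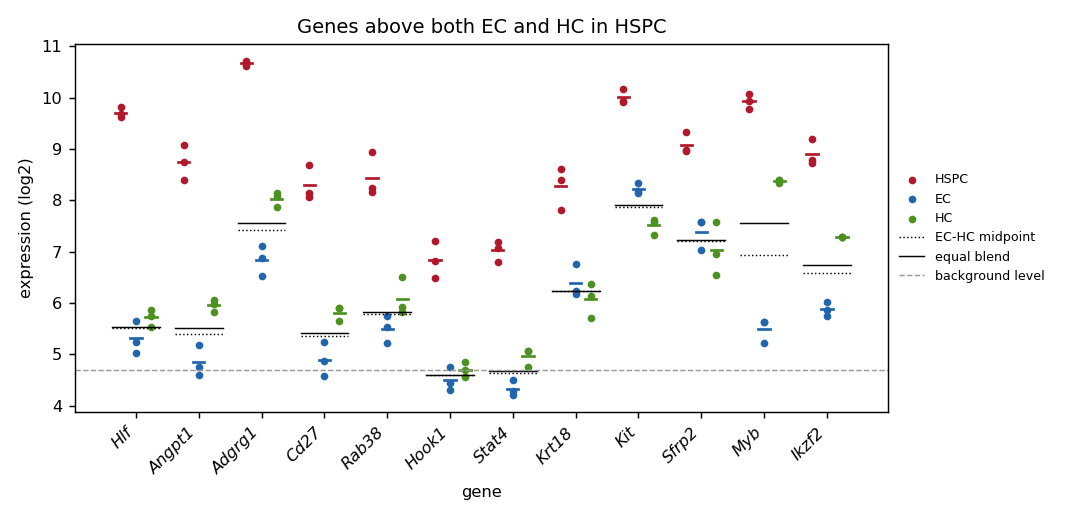
Expression (y, log2) of 12 genes in each array: HSPC (red), EC (blue) and HC (green), with short bars for group means, a dotted line for the midpoint, a solid line for the equal blend and a dashed line for the background level of 4.69. Every red point lies above every blue and green point of its gene, from Hlf to Ikzf2.

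The transcription factors of blood stem cells lay above the midpoint as a group. Of 29 measured factors, 23 were above the midpoint and 0 below, 20 were above the equal blend and 9 above both neighbours. Among all genes these shares were 3.79%, 2.77%, 2.96% and 0.407%, and 4.84% were below the blend. Counts of the lists that follow are to be read beside these shares. The list's median departure was 1.17, and 0.76 against the blend, where all genes had medians of -0.02 and -0.03. The 9 above both were Hlf, Myb, Gfi1, Gfi1b, Meis1, Bcl11a, Ikzf2, Etv6 and Mycn; all but Hlf, Myb and Ikzf2 are named after their values were seen. Ikzf2 (Helios), a zinc-finger factor of the Ikaros family, had 9.19, 8.73 and 8.78 in HSPC, against 5.87, 5.74 and 6.02 in EC and 7.28, 7.28 and 7.28 in HC. The HC arrays were tied at 7.2829 (SD 0), which lowers the spread behind the SE. The HSPC arrays were 3.06-fold above them, with a departure of 2.32 (SE 0.11). Ties occurred in other genes too, among them Sfrp2, at 7.5729 in EC replicates 1 and 2 and HC replicate 1. Their source was not tested. Bcl11a, a zinc-finger repressor, averaged 9.39 ± 0.16 in HSPC, 7.48 ± 0.08 in EC and 7.77 ± 0.10 in HC, a departure of 1.76. Meis1, a homeobox partner of Hox factors, averaged 8.78 ± 0.25 in HSPC, 6.94 ± 0.43 in EC and 7.47 ± 0.04 in HC, a departure of 1.58. Gfi1 and its paralogue Gfi1b, repressors of endothelial genes in emerging blood cells, departed by 0.95 and 1.58. Above both there were 5 factors without HC replicate 2 or HC replicate 3.

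Other factors of the list were above the midpoint without exceeding both neighbours. Spi1 (PU.1), the master factor of myeloid cells, had 9.53, 9.88 and 9.77 in HSPC, against 5.45, 5.27 and 4.83 in EC and 10.24, 10.34 and 10.35 in HC. It departed from the midpoint by 1.98 (SE 0.13, limma adjusted p = 7.37e-05) but from the equal blend by 0.38 (adjusted p = 0.202). Runx1, the factor required for blood to form from endothelium, averaged 9.86 in HSPC, 5.86 in EC and 9.90 in HC. It stood 1.98 above the midpoint and 0.87 above the blend (adjusted p = 0.0121), at about the level of HC. On the endothelial side, Mecom averaged 8.01 in HSPC, 8.04 in EC and 4.60 in HC, and Erg 9.41 in HSPC, 9.52 in EC and 6.19 in HC. Erg, an Ets factor of endothelium and stem cells, was above the blend by 0.76 (adjusted p = 0.0125). Mecom, a zinc-finger factor of stem cells, lay 0.85 from the blend without passing the test (adjusted p = 0.0551). Each of these 4 factors had an HSPC mean closer to the higher than to the lower of both neighbours, and every HSPC array of Spi1 lay under HC. Of the 6 members not called, Fli1 (-0.12), Cbfb (0.01) and Hoxa10 (0.19) had the smallest departures, and Gata2 (0.45), Lyl1 (0.34) and Hhex (0.30) were positive without passing the test. Runx1, Mecom, Erg and the members not called are named after their values were seen. Counts above the midpoint were 20, 21 and 22 without HSPC replicates 1, 2 and 3.

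Of 16 measured surface markers of stem and progenitor cells, 8 were above the midpoint and 2 below, with a median departure of 0.67, and 3 (Adgrg1, Kit and Cd27) were above both. Procr, the endothelial protein C receptor found on stem cells, had 8.64, 7.77 and 7.90 in HSPC, against 8.11, 7.76 and 7.67 in EC and 5.11, 4.68 and 4.50 in HC. Its HSPC arrays overlapped those of EC and lay far above HC, 1.80 above the midpoint and 1.09 above the blend (adjusted p = 0.024). Cd34, named after its value was seen, averaged 11.21 in HSPC, 11.42 in EC and 9.74 in HC, 0.64 above the midpoint. The 2 below were Itga6 and Cd9. Itga6, the integrin alpha-6 chain, had 8.82, 8.55 and 8.76 in HSPC, against 9.75, 9.40 and 9.74 in EC and 9.29, 9.37 and 9.45 in HC, a departure of -0.79 (SE 0.10, limma adjusted p = 0.00222). All its HSPC arrays lay below the other 6, but the call below both missed the threshold (adjusted p = 0.0542). Cd9, a tetraspanin, departed by -0.41 (adjusted p = 0.0434), a call lost in 8 of the settings that left out an array, among them HSPC replicate 2 (adjusted p = 0.115).

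Of 17 cytokine receptors, 4 were above the midpoint and 1 below, where 3.79% and 2.77% of all genes were. Their median departure was 0.00. Those above were Kit, Flt3, Csf1r and Csf3r. Flt3, the receptor for Flt3 ligand on multipotent progenitors, had 7.53, 7.57 and 7.31 in HSPC, against 4.74, 4.56 and 5.25 in EC and 6.93, 6.57 and 6.58 in HC. It was above the midpoint by 1.70 and above the blend by 1.42 (adjusted p = 0.00149), and every HSPC array lay above HC, while the call above both was not reached (adjusted p = 0.199). Csf3r, the receptor for granulocyte colony-stimulating factor, had 7.58, 7.80 and 7.51 in HSPC, against 5.22, 4.79 and 5.27 in EC and 8.15, 8.33 and 8.08 in HC. It stood 0.99 above the midpoint and 0.28 above the blend (adjusted p = 0.276). Il6st, the shared signalling chain of interleukin-6 receptors, departed by -0.53, at 8.30, 7.83 and 7.76 in HSPC, against 8.85, 8.72 and 8.71 in EC and 8.10, 8.25 and 8.30 in HC. The Il6st call was lost without any of 8 single arrays, among them HSPC replicate 3 (adjusted p = 0.125).

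Endothelial markers lay between both single-positive groups. Of 19 markers, 6 were above the midpoint and 0 below, with a median departure of 0.61. Against the equal blend 0 were above, 1 (Clec14a) was below and the median was -0.68. Cdh5 departed from the midpoint by 1.73 (SE 0.32, adjusted p = 0.0158) and from the blend by -0.25 (adjusted p = 0.779). Tie1, an orphan receptor of the angiopoietin system, had 9.42, 8.38 and 8.84 in HSPC, against 10.14, 10.03 and 10.11 in EC and 5.67, 5.29 and 5.27 in HC. Its departure from the midpoint was 1.13 and from the blend -0.26 (adjusted p = 0.586). For both genes the HSPC arrays kept the order seen in the shares of EC RNA, with replicate 1 highest and replicate 2 lowest. Clec14a, named after its value was seen, averaged 7.20 in HSPC, 9.44 in EC and 4.46 in HC, and lay -1.28 from the blend (adjusted p = 0.0341). The counts turned on the HSPC arrays: 3 markers were above the midpoint and 8 below the blend without replicate 1, 9 and 0 without replicate 2, and 2 and 0 without replicate 3. Fewer were above the midpoint without other arrays too: 3 without EC replicate 2, EC replicate 3 or HC replicate 3. Cdh5 lost its call without HSPC replicate 3 (adjusted p = 0.0661).

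Genes of the vessel subtypes and the vessel wall lay nearer to or under the midpoint. Of 16 arterial genes 1 was above the midpoint (Vegfc) and 1 below (Nrp1), and 5 were below the blend, with medians of -0.09 and -0.92. Among all genes 3.79% were above the midpoint, 2.77% below it and 4.84% below the blend. Vegfc, a growth factor for lymphatic and other vessels, had 8.83, 7.85 and 8.08 in HSPC, against 8.51, 8.40 and 8.31 in EC and 5.72, 5.08 and 5.17 in HC, and departed by 1.39 (adjusted p = 0.00693). Its HSPC arrays overlapped EC. Nrp1, a co-receptor of vascular endothelial growth factor, departed by -0.99 (adjusted p = 0.024), and its call was lost without HSPC replicate 2 or 3 (adjusted p = 0.083 and 0.101), EC replicate 1 or 3, or HC replicate 2 or 3. The count below the blend was 9 without HSPC replicate 1, 2 without HSPC replicate 2 or 3, and 3 without EC replicate 1, HC replicate 1 or HC replicate 3. Of 11 venous and lymphatic genes 0 were above the midpoint and 2 below, with a median of -0.38, or -1.11 against the blend. Prox1, the master factor of lymphatic endothelium, had 6.03, 5.09 and 5.81 in HSPC, against 7.36, 7.78 and 7.77 in EC and 6.00, 5.92 and 6.04 in HC, a departure of -1.17 (adjusted p = 0.00852). HSPC replicates 1 and 3 were at the level of HC and replicate 2 below it. Stab1, a scavenger receptor of macrophages and sinusoidal vessels, had 8.61, 9.37 and 8.87 in HSPC, against 9.61, 9.54 and 9.72 in EC and 10.39, 10.25 and 10.57 in HC, below every other array (departure -1.06, adjusted p = 0.00441). Of 12 basement membrane genes 1 was above the midpoint, 1 below and 6 below the blend, with a median of -0.88 against the blend. Below the blend were 10 without HSPC replicate 1, 2 without HSPC replicate 3 or EC replicate 1, and 3 without EC replicate 3 or HC replicate 3. Fn1, the matrix protein fibronectin, was the one above, by 1.14 (adjusted p = 0.0327). Its call was lost without any of 7 single arrays, among them HSPC replicates 1 and 3 (adjusted p = 0.0826 and 0.0888), all 3 EC arrays and HC replicates 2 and 3, and none of the list was then above. Nid2, a nidogen that links laminin and collagen, was the one below, at -0.73 (adjusted p = 0.00348).

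Blood markers lay closer to their higher group. Of 15 pan-leukocyte markers 13 were above the midpoint and 0 below, with a median departure of 1.10. Against the equal blend the median was 0.06 and 1 was called. Ptprc stood at least 1.58 above the midpoint, EC being at background, and -0.09 from the blend (adjusted p = 0.769). Coro1a, an actin regulator of leukocytes, had 9.88, 10.31 and 10.17 in HSPC, against 6.22, 5.97 and 5.64 in EC and 10.66, 10.82 and 10.78 in HC, 1.78 above the midpoint and 0.32 above the blend (adjusted p = 0.29). Cd53, a leukocyte tetraspanin, had 8.14, 10.06 and 9.26 in HSPC, against 4.39, 4.36 and 4.44 in EC and 10.95, 10.97 and 10.82 in HC. Its HSPC arrays spread over almost 2 log2 units, in the order of the shares of HC RNA. Without HSPC replicate 3, 8 of the 15 markers were above the midpoint.

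Macrophage markers had a median departure of 1.26, a higher one than any list but the 3 HSPC markers, with 8 of 17 called above and 0 below. Against the blend their median was -0.53, with 1 above and 2 below. Below the blend there were 6 without HSPC replicate 2, 1 without HSPC replicate 1 or any EC array, and 0 without HSPC replicate 3 or any HC array. Csf1r, the receptor for macrophage colony-stimulating factor, had 8.70, 10.19 and 9.62 in HSPC, against 5.23, 4.76 and 4.79 in EC and 10.94, 11.01 and 11.06 in HC. It departed from the midpoint by 1.54 (adjusted p = 0.0129) and from the blend by -0.53 (adjusted p = 0.415). Lyz2, lysozyme of myeloid cells, had 10.60, 10.87 and 10.44 in HSPC, against 5.57, 4.90 and 4.33 in EC and 11.53, 11.56 and 11.61 in HC. Lyz2 was 1 of the 12 genes furthest above the midpoint (2.38, adjusted p = 0.000549), and yet only 0.05 from the blend (adjusted p = 0.945). C1qb, a chain of complement C1q, averaged 9.56 ± 0.82 in HSPC, 4.73 ± 0.33 in EC and 10.89 ± 0.05 in HC, 1.75 above the midpoint and -0.35 from the blend (adjusted p = 0.652). The macrophage genes differed between HSPC arrays in a like way: replicate 2 was the highest for Csf1r, Lyz2 and C1qb. The count above the midpoint was 14 without HSPC replicate 1, 5 without replicate 2 and 2 without replicate 3. Csf1r, C1qb, C1qc and Tyrobp lost their calls without HSPC replicate 3 (adjusted p = 0.0603, 0.0534, 0.0695 and 0.058), and C1qc also without replicate 2 (adjusted p = 0.0529). The other 3 called were C1qa, Aif1 and Timd4.

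P2ry13, a receptor for adenosine diphosphate on myeloid cells, was the single gene above the midpoint and below the blend. It had 7.31, 8.03 and 7.68 in HSPC, against 4.47, 4.38 and 4.43 in EC and 9.29, 9.53 and 9.59 in HC. EC was at background, and the departure was at least 0.59 from the midpoint and -0.84 from the blend (adjusted p = 0.0164). The call above the midpoint was lost without HSPC replicate 3 (adjusted p = 0.0732) and with values floored at background (adjusted p = 0.111). The 6 genes above the midpoint and not off the blend that differed most between EC and HC were Ms4a6b, Cd53, Csf1r, C1qb, Mpo and Lyz2. Cd53 lost its call above the midpoint without HSPC replicate 3 (adjusted p = 0.111) or any single EC or HC array. Ms4a6b lost its call without HSPC replicate 2 or 3 (adjusted p = 0.0765 and 0.0965), EC replicate 2 or any single HC array. When each HSPC array was instead held against the blend at its own best-fitting share, a setting chosen after seeing the data, Csf1r (-0.55, adjusted p = 0.0211), Cd53 (-0.80, adjusted p = 0.00337), Ms4a6b (-0.96, adjusted p = 0.0315) and P2ry13 (-0.87, adjusted p = 0.00821) lay below that blend. Cdh5 (0.05, adjusted p = 0.944), Lyz2 (0.03, adjusted p = 0.978) and Ptprc (-0.11, adjusted p = 0.798) did not depart from it past the threshold. Nor did C1qb (-0.37, adjusted p = 0.1745) and Mpo (-0.30, adjusted p = 0.673), also among the 6 genes above. The shares were fitted to the same HSPC arrays that were then held against them.

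**Figure D3:**
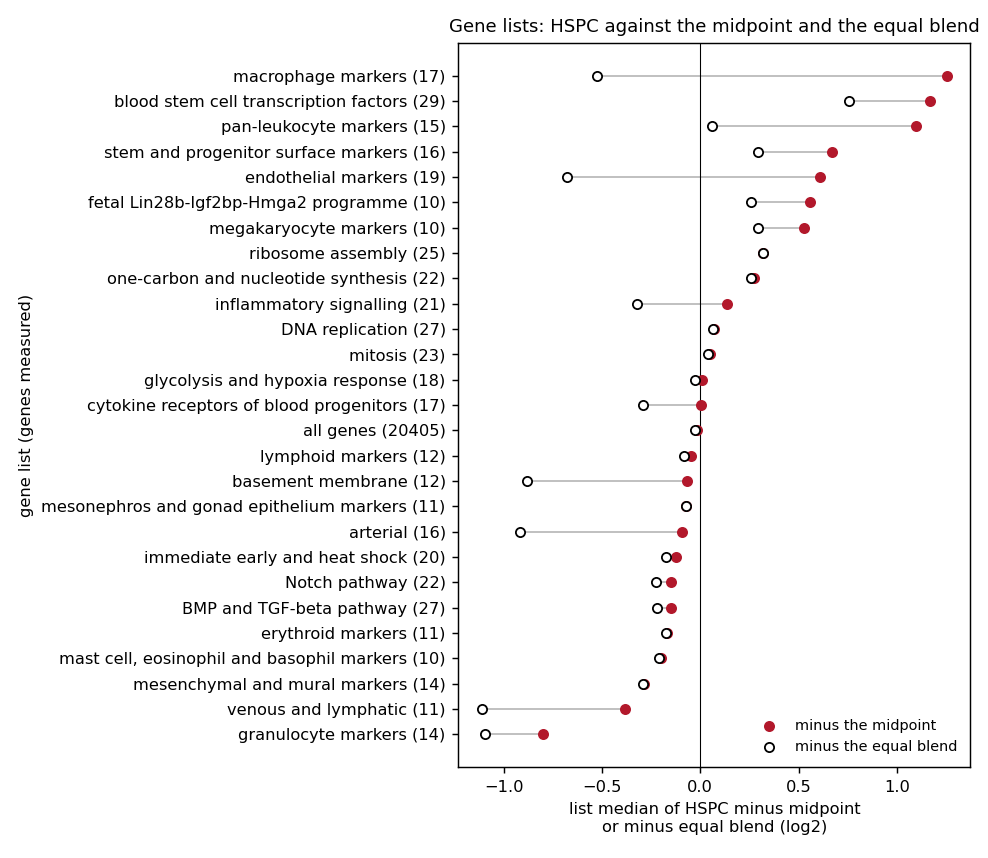
Median over each gene list (number measured in brackets) of the HSPC mean minus the EC-HC midpoint (filled) and minus the equal blend (open), in log2. Macrophage and endothelial markers change sides between both yardsticks (1.26 and -0.53, 0.61 and -0.68), while blood stem cell transcription factors stay above both (1.17 and 0.76) and granulocyte markers below both (-0.80 and -1.09).

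Markers of granulocytes were called below the midpoint more often than above it. Of 14 granulocyte markers 7 were below the midpoint, 10 below the blend and 1 (Mpo) above the midpoint, with medians of -0.80 and -1.09. Lcn2, an iron-scavenging protein of neutrophil granules, had 3.92, 3.94 and 3.93 in HSPC, against 3.86, 3.92 and 3.96 in EC and 8.85, 8.91 and 8.60 in HC. HSPC and EC were both at background, so the log2 midpoint is not determined, and HSPC lay at least 3.18 under the equal blend. Camp, the antimicrobial peptide cathelicidin, had 5.24, 5.28 and 5.64 in HSPC, against 5.49, 5.34 and 5.39 in EC and a mean of 9.71 ± 0.36 in HC, a departure of -2.17 (SE 0.15, limma adjusted p = 8.59e-05). Ngp, a neutrophil granule protein, averaged 4.42 ± 0.21 in HSPC, 4.31 ± 0.14 in EC and 8.69 ± 0.39 in HC. In all 3 genes the HSPC arrays overlapped those of EC and lay far under HC.

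Mpo, the myeloperoxidase of early granule-forming progenitors, was the marker above the midpoint. It had 9.85, 10.88 and 10.60 in HSPC, against 6.43, 4.98 and 5.15 in EC and 11.78, 11.75 and 11.57 in HC, and departed from the midpoint by 1.83 (SE 0.33, limma adjusted p = 0.0129) and from the blend by -0.28 (adjusted p = 0.757). The call was lost without HSPC replicate 3 (adjusted p = 0.0604). S100a8 and S100a9, calcium-binding proteins of mature neutrophils named after their values were seen, lay -2.05 and -2.22 from the midpoint without passing the test (adjusted p = 0.0642 and 0.07) and -4.43 and -4.45 from the blend (adjusted p = 0.00421 and 0.00668).

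The 12 called genes furthest below the midpoint held Camp, Ngp and Lcn2 of the granulocyte list. Among the others, Stfa3, Stfa2 and Csta3, inhibitors of cysteine proteases from 1 gene family that can share probe sequence, were at background in HSPC and EC. HSPC lay at least 4.39, 1.83 and 1.53 under the blend for them. Hp, haptoglobin, had 4.66, 4.49 and 4.67 in HSPC, against 4.27, 3.98 and 4.45 in EC and 9.67, 9.77 and 9.66 in HC, at least 4.06 under the blend. Olfm4, a neutrophil granule glycoprotein, was at least 3.35 under it. For Stfa3, Stfa2, Csta3, Hp and Olfm4, HC was thus the sole group with a mean above background. Genes of eosinophils and mast cells were among the 12 too. Hdc, the enzyme that makes histamine, had 5.24, 5.33 and 5.12 in HSPC, against 5.07, 4.91 and 4.66 in EC and 9.03, 8.56 and 8.62 in HC, a departure of -1.58 (SE 0.13, limma adjusted p = 0.000177). Prg3, an eosinophil granule protein, averaged 5.27 ± 0.35 in HSPC, 4.94 ± 0.25 in EC and 8.63 ± 0.52 in HC, a departure of -1.52. Ear6, an eosinophil-associated ribonuclease, was at least 2.83 under the blend and Gpr141, a G protein-coupled receptor, at least 0.74. Of 10 markers of mast cells, eosinophils and basophils 2 (Hdc and Epx) were below the midpoint, 4 below the blend and 5 at background in all groups.

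**Figure D4:**
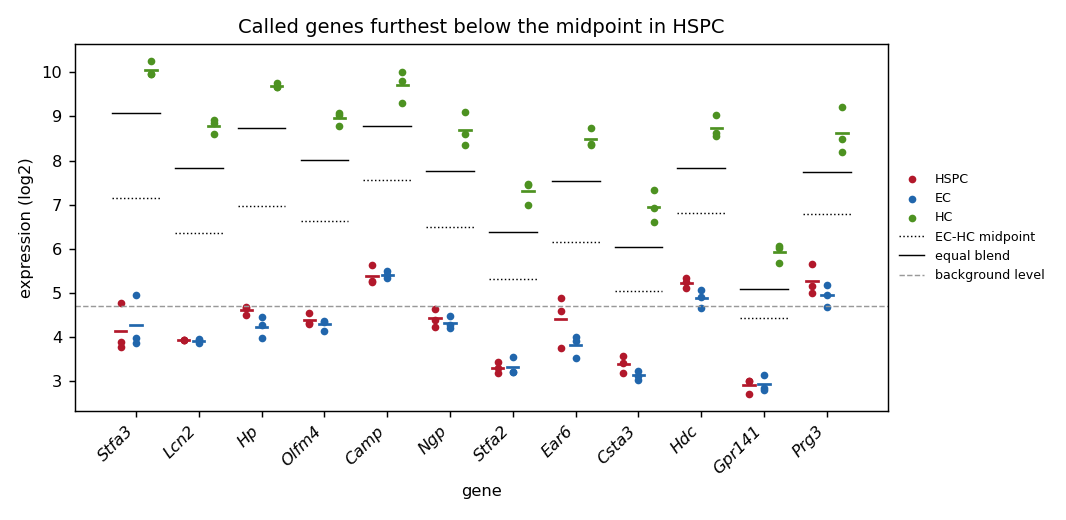
Expression (y, log2) in each array of the 12 named genes furthest below the midpoint among those past the threshold: HSPC (red), EC (blue) and HC (green), with short bars for group means, a dotted line for the midpoint, a solid line for the equal blend and a dashed line for the background level of 4.69. Red and blue points lie together and green points stand apart above, and most red points are at or under the background level.

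The share of HC or EC RNA that a gene alone would give, if HSPC were a blend, differed between gene classes of the same population. It was computed on the unlogged scale for genes at least 2 apart on the log2 scale. The macrophage markers gave a median HC share of 16.4%, 56% and 37% in HSPC replicates 1, 2 and 3, and the pan-leukocyte markers 39.4%, 64.5% and 55.1%. The granulocyte markers gave 2.31%, 1.3% and 2%, with Mpo at 26.8%, 56.1% and 45.8% and Prtn3, a granule protease named after its value was seen, at 18.9%, 28.8% and 27.3%. Mast cell, eosinophil and basophil markers gave 3.44%, 1.74% and 4.55%. The median of the granulocyte markers was therefore near the EC level in all 3 arrays, with Mpo and Prtn3 well above it. The 2 medians rest on the 9 of 14 granulocyte and 4 of 10 mast cell, eosinophil and basophil markers that were far enough apart. Lcn2, Ngp and Epx were at background in both HSPC and EC, so their shares near 0 are values of the floor. The median of the macrophage markers was lowest in replicate 1 and highest in replicate 2, while Lyz2 (50.5%, 61.2% and 45.1%) was lowest in replicate 3. Summed on the unlogged scale and put back in log2, the 14 granulocyte markers gave 10.69 to 11.32 in HSPC, against 8.35 to 9.18 in EC and 13.58 to 13.92 in HC. On the other side, the endothelial markers gave a median EC share of 50%, 15.5% and 29.1%, the arterial genes 52%, 10.3% and 14.9%, the venous and lymphatic genes 28.1%, 8.06% and 20.3% and the basement membrane genes 33.4%, 9.85% and 22.2%. Within the endothelial list Egfl7, a secreted vessel protein, gave the highest share of the HSPC mean (62.8%) and Kdr, a receptor of vascular endothelial growth factor, the lowest (18.3%), both named after their values were seen. The part that macrophages or endothelial cells within the gate had in these values was not tested.

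**Figure D5:**
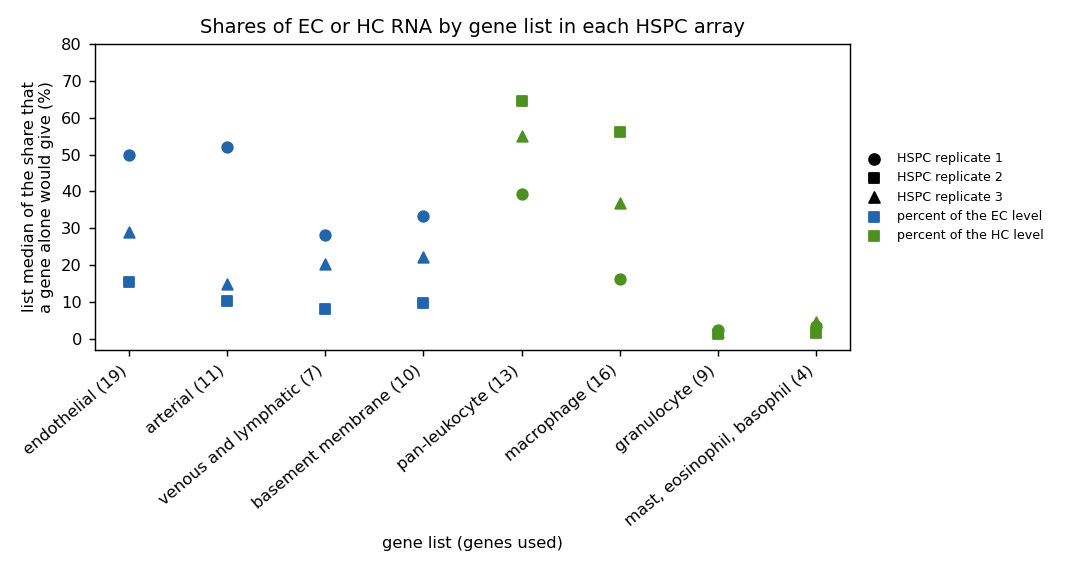
Share of the EC level (blue) or the HC level (green) that each gene alone would give in a blend, as the median over a list (y, percent), for each HSPC array (circle, replicate 1; square, replicate 2; triangle, replicate 3). Replicate 1 is highest for the 4 endothelial lists and lowest for pan-leukocyte and macrophage markers, and granulocyte markers lie between 1.3% and 2.31% in all 3 arrays.

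The 22 genes below both EC and HC departed less than those above both. Their median departure was -0.82, -0.83 and -0.79 in HSPC replicates 1, 2 and 3, a likeness that the call itself largely fixes. The fold below the nearer neighbour had a median of 1.57, from 1.33 to 2.20, and 1 gene (Anxa3) was at least 2-fold below. All 22 had every HSPC array below the other 6, which held for 487 genes (2.39%) of all. Anxa3, a phospholipid-binding annexin, had 8.46, 9.12 and 8.74 in HSPC, against 9.81, 9.96 and 9.97 in EC and 10.06, 10.05 and 10.31 in HC, a departure of -1.25 (SE 0.14, limma adjusted p = 0.00105). Prdm1 (Blimp1), a transcriptional repressor, had 5.96, 5.82 and 6.24 in HSPC, against 7.46, 7.22 and 7.36 in EC and 7.02, 6.86 and 6.90 in HC, a departure of -1.13. Zfp36l1, a protein that promotes decay of AU-rich messages, had 8.87, 8.75 and 9.08 in HSPC, against 9.80, 9.70 and 9.88 in EC and 9.96, 9.99 and 9.85 in HC, a departure of -0.96. Gadd45g, a stress-response gene, departed by -0.97 and Adam19, a membrane metalloprotease, by -1.34. EC and HC were close to each other in Anxa3, Gadd45g and Zfp36l1, while Adam19 was higher in EC. Golm1 and Man1c1, which encode proteins of the Golgi, departed by -1.02 and -0.72, and Dock4, an activator of Rac, Gngt2, a G protein gamma subunit, and Cttnbp2nl by -1.02, -0.88 and -1.02. For these 10 genes leaving out any single array kept the departure from the midpoint past the threshold. That does not cover their calls below both, which were less stable. Leaving out 1 array at a time left 2 to 19 genes below both.

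Of the 27 measured genes of the BMP and TGF-beta pathway, which patterns the aorta and its emerging blood clusters, 0 were above the midpoint and 5 below, with a median of -0.15. Bmp2, a ligand, had 5.26, 5.54 and 5.14 in HSPC, against 6.95, 6.72 and 5.85 in EC and 6.65, 7.33 and 6.64 in HC, below every other array (departure -1.37, adjusted p = 0.0143). Acvr1, a type I receptor, had 6.64, 6.26 and 6.38 in HSPC, against 8.07, 7.64 and 7.86 in EC and 6.88, 6.58 and 6.88 in HC, a departure of -0.89 (adjusted p = 0.00371). HSPC overlapped HC for this gene and lay far under EC. Tgfb2, a ligand, and Smad1, a BMP signal transducer, departed by -0.86 and -0.56, and Acvrl1 completed the 5. Without HSPC replicate 3 the calls of Bmp2, Tgfb2 and Smad1 were lost (adjusted p = 0.0668, 0.0578 and 0.0931). Without HSPC replicate 2 those of Tgfb2 and Smad1 were lost (adjusted p = 0.0563 and 0.0768), and that of Smad1 also without EC replicate 3, HC replicate 1 or HC replicate 3. Of the 27 genes, 2 were below the midpoint without HSPC replicate 2 or 3. Without HC replicates 1 or 3 it was 3. Of 22 Notch pathway genes 1 was above and 1 below, where 3.79% and 2.77% of all genes were. Mfng, a fringe enzyme that modifies Notch, stood 0.91 above (adjusted p = 0.00103). The ligand Dll1 lay below (adjusted p = 0.0471, lost without 7 of the 9 arrays, HSPC replicate 2 among them at 0.14).

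Ribosome assembly factors had more members above the midpoint than the other housekeeping lists. Of 25, 11 were above, where 3.79% of all genes were, and 0 below, with a median departure of 0.32, and 12 were above the blend, but 0 passed the test above both (the same limma test). Because EC and HC differ little in these genes, midpoint and blend nearly coincide. Nop56, a core protein of small nucleolar ribonucleoproteins, had 10.41, 10.10 and 10.19 in HSPC, against 9.57, 9.64 and 9.48 in EC and 9.72, 9.81 and 9.72 in HC, a departure of 0.58 (SE 0.08, limma adjusted p = 0.00341). Polr1b, a subunit of RNA polymerase I, had 7.18, 7.43 and 7.29 in HSPC, against 6.67, 6.56 and 6.37 in EC and 6.90, 6.69 and 6.97 in HC, a departure of 0.60. In both genes the HSPC arrays lay above the other 6, as they did for 12 of the 25 and for 3.64% of all genes. The count above the midpoint was 6 without HSPC replicate 2, and 7 without HSPC replicate 3, HC replicate 1 or HC replicate 3. Above the blend it was 7 without HSPC replicate 2 or HC replicate 3. With each array centred on its median 8 were above the midpoint, and the median of all genes was -0.06, against -0.02 without centring.

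Of 22 genes of one-carbon metabolism and nucleotide synthesis 4 were above the midpoint and 0 below, with a median of 0.27, led by Mthfd1, a folate enzyme (0.50, adjusted p = 0.00999); 2 were above without HSPC replicate 3. Of 27 DNA replication genes 2 were above (Pole and Mcm7) and 0 below, where 3.79% and 2.77% of all genes were, with a median of 0.07. The count above was 0 without HSPC replicate 2, EC replicate 2 or 3, or HC replicate 2 or 3. It was 1 without HSPC replicate 3, EC replicate 1 or HC replicate 1. Of 23 mitosis genes limma called none in either direction, with a median of 0.05, and at an unadjusted p under 0.05 there were 2 above and 0 below. The medians of both groups of proliferation genes thus lay near the midpoint. None of 20 immediate early and heat shock genes was called (1 above and 1 below at an unadjusted p under 0.05), and their median was -0.12. Of 10 fetal programme genes 3 were above and 1 below, among them Hmga2, a chromatin protein of fetal progenitors, at 10.80, 10.37 and 10.71 in HSPC, against 9.88, 9.83 and 9.90 in EC and 8.97, 8.84 and 8.45 in HC (departure 1.31, adjusted p = 0.000623). Its HSPC arrays lay above all others, without passing the test above both (adjusted p = 0.101). The count above was 1 without HSPC replicate 3 or EC replicate 2.

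Of 10 megakaryocyte markers 4 were above the midpoint and 0 below. Itgb3, the integrin beta-3 chain of platelets, was also above both, at 7.46, 7.56 and 7.95 in HSPC, against 5.96, 6.14 and 5.86 in EC and 6.19, 6.26 and 5.98 in HC, 2.86-fold above HC (adjusted p = 0.00208). Gp9, a platelet glycoprotein, had 7.14, 6.87 and 6.95 in HSPC, against 5.72, 6.23 and 5.49 in EC and 6.31, 6.21 and 6.23 in HC, a departure of 0.95. In both genes every HSPC array lay above the other 6. Vwf, von Willebrand factor of endothelium and platelets, was above the midpoint by 1.24 and by 0.16 above the blend (adjusted p = 0.834), and lost its call without HSPC replicate 1 or 3 (adjusted p = 0.0704 and 0.0808), EC replicate 2 or 3, or HC replicate 2 or 3. Rab27b, the other marker called, had 4.68, 4.78 and 4.86 in HSPC, with HC at background. Its departure was at least 0.06, and its call was lost with values floored at background (limma adjusted p = 0.689). The count above the midpoint was 2 without HSPC replicate 3, EC replicate 2, or HC replicate 2 or 3. Summed on the unlogged scale, the 10 markers gave a log2 level of 10.75 to 11.43 in HSPC, overlapping both EC (10.12 to 10.81) and HC (11.25 to 11.39). Of 18 glycolysis and hypoxia genes 3 were above and 1 below, or 5 above without HSPC replicate 1. Egln3, an oxygen-sensing prolyl hydroxylase, had 7.79, 8.14 and 7.94 in HSPC, against 7.25, 7.38 and 7.04 in EC and 6.35, 6.44 and 6.40 in HC. It was 1.66-fold above EC and above both (adjusted p = 0.0317), a call above both that was lost without 7 of the 9 arrays, HSPC replicates 2 and 3 among them. Slc2a3, a glucose transporter high in HC, was 0.78 above the midpoint. Slc2a1, a glucose transporter high in EC, was -0.25 from it (adjusted p = 0.0343). The Slc2a1 call was lost in 10 of 16 other settings, among them those without HSPC replicate 1, 2 or 3 (adjusted p = 0.0959, 0.0818 and 0.095), without EC replicate 2 or 3, without HC replicate 1 or 3, and with repeated quantile normalization (adjusted p = 0.154).

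Of 21 inflammatory signalling genes 2 were above and 1 below, where 3.79% and 2.77% of all genes were. Il1a, a cytokine, had 4.99, 6.27 and 6.35 in HSPC, against 3.07, 3.13 and 3.49 in EC and 5.10, 5.70 and 5.40 in HC, at least 0.83 above the midpoint. Its call was lost with values floored at background, the setting that gives this bound (adjusted p = 0.28). It was also lost without HSPC replicate 2 or 3 (adjusted p = 0.0573 and 0.0702). Il6 was at background in HSPC and EC, at least 1.02 under the blend. Its call below the midpoint was lost with floored values (adjusted p = 0.259) and without HSPC replicate 3 (adjusted p = 0.0628). The count above was 8 without HSPC replicate 1, 0 without HSPC replicate 2 or 3, and 1 without EC replicate 2 or 3 or HC replicate 2 or 3. Markers of cell types outside the sorted classes were also read. Of 11 erythroid, 12 lymphoid and 11 mesonephros and gonad epithelium markers limma called none against the midpoint. At an unadjusted p under 0.05 there were 0 above and 2 below among the erythroid, 1 and 0 among the lymphoid and 0 and 5 among the mesonephros and gonad markers. Of 14 mesenchymal and mural markers 1 was called, Prrx1, a homeobox factor of mesenchyme, at -0.64 (adjusted p = 0.0234), with 1 above and 10 below at an unadjusted p under 0.05. The Prrx1 call was lost without HSPC replicate 2 or 3 (adjusted p = 0.072 and 0.0956), EC replicate 1 or 2, or HC replicate 1 or 2, and 3 markers were below without EC replicate 3. Summed on the unlogged scale and put back in log2, the 14 mesenchymal markers gave 9.16 to 9.66 in HSPC, against 9.30 to 9.82 in EC and 9.30 to 9.71 in HC. The 11 erythroid markers gave 12.98 to 13.45 in HSPC, against 12.29 to 14 in EC and 12.55 to 13.74 in HC. Both summed levels overlapped between the 3 groups. The 11 mesonephros and gonad markers gave 8.50 to 8.65 in HSPC, against 8.71 to 8.92 in EC and 8.66 to 8.93 in HC, with every HSPC array under the others. The 12 lymphoid markers gave 9.51 to 10.08 in HSPC, against 9.05 to 9.38 in EC and 11.05 to 11.11 in HC, with no overlap. The part of these cell types in the other results was not tested.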

How the data were processed

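Gene expression of sorted cells was measured on 9 Affymetrix arrays, after amplification of nanogram amounts of RNA, per the labels' protocols. These name the Mouse Gene 1.0 ST and 2.0 ST arrays without saying which sample used which. The deposited values are log2 expression values, made with RMA and Partek per the submitters' processing notes (versions not given in the sources used here). RMA's common scale hides a change in total RNA per cell and compresses differences of dim genes. No detection call was used, and the annotation build is not given in the sources used here. Array medians lay between 5.41 and 5.51. The number of arrays limits the precision.

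Of 21115 probe sets, 20405 had 1 symbol, 0 several and 710 none (left out). All 20405 matched RefSeq's GRCm38.p6 gene table by number and symbol.

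Group means of all 9 arrays were fitted with limma 3.58.1 in R 4.3.3 (lmFit, eBayes, two-sided, 6 residual and 2.75 prior degrees of freedom). Departure from the midpoint was a contrast. Departure from the equal blend, log2 of the average unlogged EC and HC means, took its standard error by the delta method from the same moderated variances. Genes outside both needed the same sign against EC and HC and took the larger p. Every adjusted p is limma's with Benjamini-Hochberg adjustment over 20405 genes, threshold 0.05. With 3 arrays a group, 0.1 is the smallest two-sided p that exact permutation allows for 1 gene. The blend nearest each HSPC array was fitted in steps of 0.01 over genes that differed between EC and HC in a fit of those 6 arrays. Where EC or HC was at background, a positive departure is given as a lower bound with values floored at 4.69. Where HSPC was, a lower bound on the distance under the blend is given. The tests were tried on simulated data first.

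The members, the 27 gene lists (452 of 479 entries measured, 433 genes) and the tests were chosen with earlier results of these data known, so the lists are no independent evidence and were described by counts and medians. Named genes were the 12 largest departures each way, the 10 furthest above and below both, the 6 above the midpoint that differed most between EC and HC without departing from the blend, the 1 that was below the blend, up to 4 called members per list with any on the opposite side, and Hlf, Adgrg1, Kit, Cdh5 and Ptprc. Predicted and unnamed gene models were left out. Other genes are named after their values were seen. Members of 1 gene family can share probe sequence.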

Additional observations from a re-analysis of the deposited data

How the results depend on the processing

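Each count was recomputed under other settings. With values floored at background, 494 genes were above and 323 below the midpoint, 387 above and 529 below the equal blend, and 40 above and 4 below both. A call lost here need not be that of a dim gene. Of the 22 genes below both, 0 had a group mean at background. Cd9, Bmp2 and H19 kept departures of -0.41, -1.37 and 1.03 and lost their calls (limma adjusted p = 0.0939, 0.0593 and 0.0796). Floored values also enter the variance that limma shares between genes, and the part of this was not tested. Leaving out 1 array at a time gave 481 to 691 above and 270 to 529 below the midpoint, 374 to 478 above and 515 to 968 below the blend, and 36 to 64 above and 2 to 19 below both. The cause of these differences was not tested, beyond the smaller number of arrays. With the replicate number as a replicate block, 706 genes were above and 516 below the midpoint, 542 above and 968 below the blend, and 60 above and 10 below both. The numbers are no pairing by design, and deviations of same-numbered samples from their group means correlated at -0.04 to 0.15. Counting, after the data had been seen, genes whose 3 HSPC arrays all lay above or below the 6 others gave 743 and 487. The other settings kept each count within 1.5 times: repeated quantile normalization, centring on array medians, leaving out 7017 dim probe sets, limma's trend and robust options, a fitted position in place of the midpoint (737 and 508) and blends at the fitted share (568 and 939) or at each array's own share (657 and 1199). Shares of EC RNA in the HSPC arrays moved by less than their own spread (SD 0.251). For 99 named genes under 16 settings, 1376 of 1584 values kept their direction and call, 208 kept direction and lost the call (36 genes), and 0 changed direction.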
